A study of Drosophila melanogaster with 2 samples.

Results

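The genes described here encode 10 insulator proteins of Drosophila melanogaster: Chro, Cp190, mod(mdg4), CTCF, BEAF-32, su(Hw), pita, ZIPIC, Ibf1 and Ibf2. They were taken by name, with no threshold on a measured value, from 13945 protein-coding genes of the annotation. For each gene, every CG2875 peak was collected whose summit lay in the gene body or within 5 kb of either end, a stretch called the window of the gene. The peaks came from chromatin immunoprecipitation sequencing (ChIP-seq) of whole fly embryos, collected from 0 to 14 h of development with the sexes mixed. The embryos belonged to a transgenic line, CG2875-GFP, that stably expressed the protein CG2875 with green fluorescent protein at its C-terminus, and an anti-GFP antibody was used for the precipitation. There were 2 biological replicates of this 1 condition, so the measurements describe where peaks lay and how strong they were, and no test between conditions exists. Both replicates came from this single line. Because whole embryos were used, the peaks average over every tissue and stage in the collection.

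Insulator proteins divide chromosomes into domains and limit which enhancers reach which promoters. In Drosophila, several of them bind DNA directly: BEAF-32 through a BED finger, CTCF, su(Hw), pita and ZIPIC through arrays of zinc fingers, and Ibf1 and Ibf2 through BED fingers. Cp190 and mod(mdg4), which carry BTB domains, and the chromodomain protein Chromator, encoded by Chro, are brought to DNA by these factors and join distant sites. Many insulator sites in the fly genome lie close to transcription start sites (TSSs) of divergently transcribed housekeeping genes. The experiment asked where CG2875 lies in the genome, and the loci of these genes are examined here as possible sites of that binding.

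Peaks were taken from 4 lists on the dm6 assembly. The IDR list holds 4278 peaks. It was deposited as thresholded by the irreproducible discovery rate, a measure of rank agreement between the replicates. The pooled list and the replicate lists hold 30000 peaks each and reach down into background by design. The signal value of a peak is the enrichment as the peak caller scored it. It was read only within its list, together with the rank of the peak, where rank 1 is the strongest. In the IDR list it ran between 119.5 and 2332 with a median of 187.7, and the IDR peaks were the 4278 strongest peaks of the pooled list. The IDR list thus equals a cut on pooled signal, and a place in it does not show that both replicates ranked a peak high. Read totals are unknown, so no counting interval can be given for a peak.

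In the IDR list, CG2875 peaks lay at the promoters of Chro, Cp190, BEAF-32 and CTCF. Most of the other insulator protein genes had an IDR summit in the window but none within 500 bp of their own TSSs. Some of those promoters had weaker summits in the pooled or replicate lists. An IDR summit was within 500 bp of a TSS for 4 of the 10 genes (40.0%), against 14.0% of all protein-coding genes. A summit lay in the gene body or within 5 kb for 9 of the 10 genes (90.0%), against 40.9% of all protein-coding genes. The window count depended on the list: the strongest 4278 peaks of replicate 1 alone gave 5 of the 10 (40.9% of all), those of replicate 2 alone gave 8 (41.2% of all), and the stronger 50% of the IDR peaks gave 3 (26.0% of all). The genes are few, and Ibf1 and Ibf2 share a peak, so the shares are descriptions of these 10 genes. The windows of the 10 genes had a median length of 13640 bp, against 12170 bp for all protein-coding genes, so they were slightly longer targets. ZIPIC was the gene without an IDR summit.

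Together the windows covered 146.1 kb and held 11 distinct IDR summits, or 75.3 per Mb, against 32.0 per Mb over the 133.9 Mb of chromosome arms. In the pooled list, 49 summits lay in the windows, which gave 335 per Mb against 224 per Mb over the arms. These densities are not matched, because the windows are drawn around genes and the arms include sequence far from genes. The density over the windows of all protein-coding genes was not computed. The mod(mdg4) window alone held 4 of the 11 IDR summits. Of the 11 summits, 4 had an insulator protein gene as the nearest TSS and 7 were nearest to another gene. These 7 include the summit at pre-mod(mdg4)-E, a unit inside mod(mdg4) that the annotation lists as a separate gene. A TSS of some gene lay within 500 bp of 9 of the 11 summits. All 11 peaks overlapped a peak in both replicate lists. This is a weak condition, because each of those lists holds 30000 peaks and an overlap of 1 bp was enough. The levy peak, for example, was matched in replicate 1 by a peak of rank 12479. The strongest 4278 peaks of each replicate list are called the equal-length list of that replicate. Of the 11 peaks, 8 were in the equal-length list of replicate 1, 9 in that of replicate 2, and 6 in both.

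**Figure D1:**
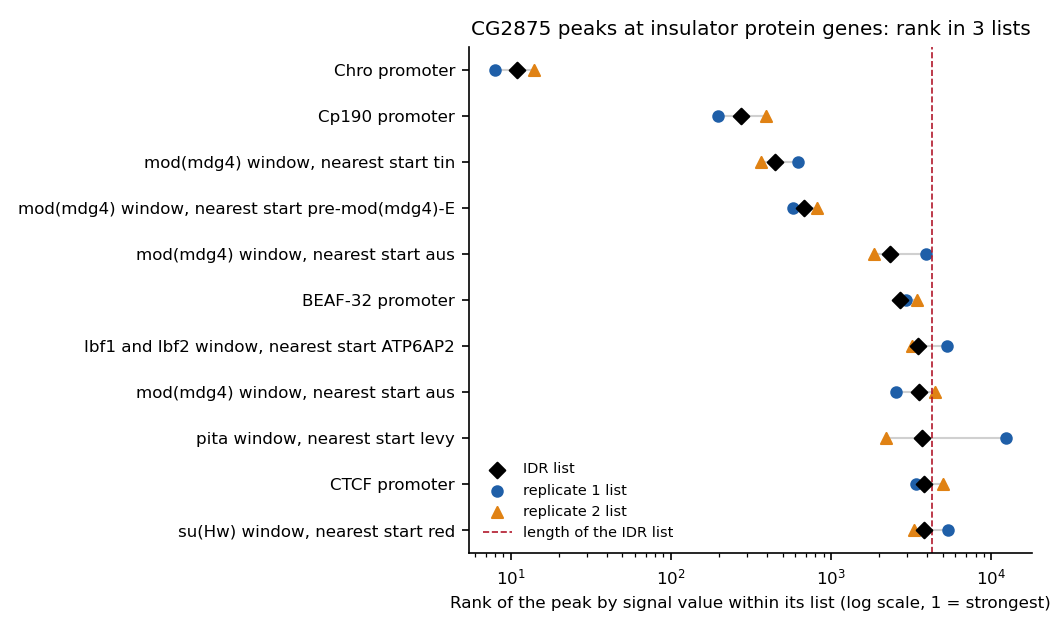
Rank of the 11 IDR peaks in the windows of the insulator protein genes, on a log axis where 1 is the strongest peak. Black diamonds are the IDR list, blue circles replicate 1 and orange triangles replicate 2, and the dashed line is the length of the IDR list (4278). The Chro and Cp190 promoter peaks and the tin and pre-mod(mdg4)-E peaks in the mod(mdg4) window rank in the first 1000 in all 3 lists, and the levy peak in the pita window shows the widest gap between the replicates.

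Chro and Cp190, whose proteins are recruited by other insulator proteins, had the strongest peaks. Chro (FBgn0044324, 3L:22873702-22878984, minus strand) has 3 TSSs and lies head to head with Ssl1, which encodes a subunit of the transcription factor TFIIH and starts 105 bp away. The peak at 3L:22878710-22879091 had a signal value of 1529 and rank 11 in the IDR list. Its signal was 769.6 in replicate 1, rank 8, and 749.3 in replicate 2, rank 14, so both replicates placed it among their strongest peaks. The summit, at position 22878902, was in the 5′ UTR, 82 bp downstream of the most upstream TSS and 134 bp and 718 bp upstream of the other TSSs. The replicate summits were within 16 bp of it. This was the only IDR summit in the Chro window, and the other 5 pooled summits there had signal values of 33.4 to 68.5. The next line gives the 30 bases at the summit from the RefSeq genome of Release 6, the same build (3L:22878888-22878917, minus strand, 5′ to 3′), because they hold the only copy of the BEAF-32 word within 150 bp. Capitals mark that word, CGATA, here in its reverse complement.
Chro summit: ggactgcagttagtttaaagcTATCGacag

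Among the 1946 protein-coding genes with an IDR summit at a promoter, the Chro peak was the fifth strongest, and 99.7% of the genes had a weaker promoter peak. The median over these genes was 204.9, with quartiles of 148.4 and 326.5. The promoter peaks most like that of Chro were chosen by their distance in log2 signal over the IDR and both replicate lists. The closest was that of CG1888, at a distance of 0.0514, with a signal of 1535 in the IDR list, 768.9 in replicate 1 and 776.4 in replicate 2. CG18549 followed at 0.0847, with an IDR signal of 1526. The Polycomb group gene ph-p was at 0.146, with an IDR signal of 1411. These are likenesses in peak strength over 3 lists built from the same 2 libraries.

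Cp190 (FBgn0000283, 3R:15270432-15275241, minus strand) encodes the centrosomal and insulator cofactor that most fly insulator proteins recruit. Its promoter peak, 3R:15275201-15275544, had a signal value of 554.3 and rank 273 in the IDR list. Replicate 1 gave 296.8, rank 196, and replicate 2 gave 255.4, rank 394. The peak was therefore well inside the upper part of both replicate lists, and 90.5% of the genes with a promoter peak had a weaker peak. The summit, at position 15275366, was 125 bp upstream of the outer TSS and 576 bp upstream of the inner TSS, between Cp190 and the divergent gene CG4338, whose TSS is 281 bp from that of Cp190 and also within 500 bp of the summit. No other IDR summit lay in the window, and the other 3 pooled summits there had signals of 35.6 to 43.8. The intergenic sequence is shown because it holds the DNA replication-related element (DRE), TATCGATA, which overlapped the outer TSS, 125 bp from the summit. It spans 3R:15275234-15275498 on the minus strand, 5′ to 3′, with the summit at base 133 and the TSS at base 258. Capitals mark the DRE and a separate CGATA word in reverse complement. The DRE itself contains CGATA on both strands.
Cp190 promoter: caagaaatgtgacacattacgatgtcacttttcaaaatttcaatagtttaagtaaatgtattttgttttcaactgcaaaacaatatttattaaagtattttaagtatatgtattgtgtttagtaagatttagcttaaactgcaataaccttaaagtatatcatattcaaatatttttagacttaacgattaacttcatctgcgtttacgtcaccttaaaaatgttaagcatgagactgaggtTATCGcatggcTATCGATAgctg

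The locus of mod(mdg4) (FBgn0002781, 3R:21350846-21377401, minus strand) was the only insulator protein gene with 4 or more IDR summits in its window, a count that 2.75% of all protein-coding genes reached. At 26556 bp it is also the longest of the genes, and its window spans 36556 bp. The gene is known for its many isoforms, which join a common first part to alternative ends transcribed separately, in some cases from the opposite strand, by trans-splicing. The annotation gives 22 transcripts from 1 TSS, and 23 separate units named pre-mod(mdg4) that overlap the gene and stand for the separately transcribed parts. The shared promoter of mod(mdg4) had no peak within 500 bp in the IDR or pooled list. Replicate 1 had a weak summit there with a signal of 21.3, rank 20148, and replicate 2 had a signal of 39.1, rank 10321.

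The IDR peak inside mod(mdg4) lay instead at the start of its internal units. It spanned 3R:21365437-21365573, in an intron, with the summit at position 21365490, 11911 bp downstream of the shared TSS. Its signal was 360.9, rank 683, in the IDR list, with 181.4, rank 581, in replicate 1 and 179.8, rank 815, in replicate 2. The replicates thus ranked it alike. The summit was 2 bp upstream of the start of pre-mod(mdg4)-E, which points in the same direction as mod(mdg4). It was 119 bp upstream of a start on the plus strand that 7 further units share, and 200 bp upstream of a start shared by the units AB, C and E. In all, 10 of the 23 units had the summit within 500 bp of a start. Among the other starts, that of the units AA, N and O had a weaker peak, which was not in the IDR list: 90.0 in the pooled list, rank 6392, at 304 bp, with 37.7 in replicate 1 and 56.3 in replicate 2. The starts of 8 units at position 21359768 and of the units T and Z at 21360176 were 5722 bp and 5314 bp from the nearest IDR summit. The DNA between the divergent internal starts is shown because the summit of the only IDR peak inside the gene fell there. It spans 3R:21365489-21365608 on the minus strand, 5′ to 3′, and has the summit at base 119. It holds none of the 8 motifs searched, so it has no capitals.
pre-mod(mdg4)-E start: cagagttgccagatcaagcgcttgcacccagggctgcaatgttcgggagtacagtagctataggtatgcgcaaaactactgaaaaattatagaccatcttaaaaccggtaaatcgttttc

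**Figure D2:**
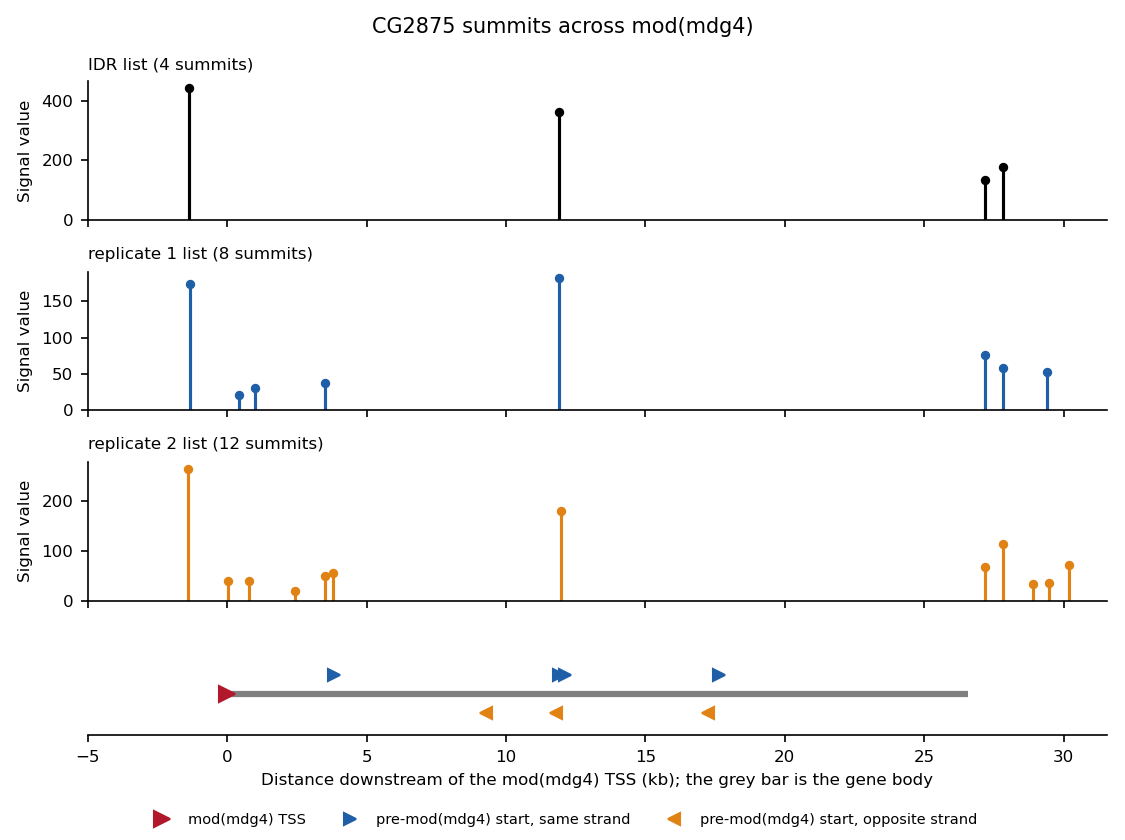
CG2875 summits across mod(mdg4) in the IDR list and in each replicate list, by distance downstream of the mod(mdg4) TSS in kb (horizontal) and signal value (vertical, each list on its own scale). The grey bar is the gene body, the red triangle its TSS, and blue and orange triangles are starts of pre-mod(mdg4) units on the same and the opposite strand. The strongest summit inside the gene stands at the cluster of internal starts, 11911 bp downstream of the TSS in the IDR list, in all 3 lists (signal 360.9, 181.4 and 179.8), the replicate lists have weaker summits inside the gene as well, and the shared TSS has no IDR summit.

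The other 3 IDR peaks in the mod(mdg4) window lay outside the gene, and the TSS nearest to each was that of a neighbour. The strongest was at 3R:21378697-21378917, 1369 bp upstream of mod(mdg4) and 207 bp upstream of tin, the homeobox gene that specifies the heart. Its signal was 442.1, rank 449, in the IDR list, 173.7, rank 627, in replicate 1 and 263.9, rank 364, in replicate 2. The remaining peaks lay past the far end of the gene, near the gene aus. The summit 12 bp inside aus had a signal of 176.6, rank 2347, with 58.4 in replicate 1 and 114.1 in replicate 2. The summit 625 bp upstream of aus was 620 bp past the end of mod(mdg4), with no TSS within 500 bp. Its peak had a signal of 135.4, rank 3557, with 76.7 in replicate 1 and 67.8 in replicate 2, where its rank of 4448 was past the equal length. The order of these peaks thus differed between the replicates.

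Of the 7 genes for DNA-binding insulator proteins, CTCF and BEAF-32 had an IDR summit at the promoter, and both peaks were modest. CTCF (FBgn0035769, 3L:7353578-7356713, minus strand) encodes the fly counterpart of the vertebrate insulator protein. Its peak, 3L:7356367-7356790, had a signal of 130.1 and rank 3790 of 4278 in the IDR list. The signal was 63.7, rank 3413, in replicate 1 and 62.9, rank 5026, in replicate 2. In replicate 2 the peak therefore fell outside the equal-length list, and leaving replicate 1 out removed the call. It ranked 1751 among the 1946 genes with a promoter peak. The summit, at position 7356579, was 134 bp downstream of the single TSS, just inside the first intron of CTCF, where the antisense RNA gene asRNA:CR45822 has an exon. The next line gives the first intron and the first bases of the next exon, shown because the peak is weak and its only CGATA word lies 49 bp from the summit. It spans 3L:7356447-7356580 on the minus strand, 5′ to 3′, with the summit at base 2, and capitals mark CGATA.
CTCF first intron: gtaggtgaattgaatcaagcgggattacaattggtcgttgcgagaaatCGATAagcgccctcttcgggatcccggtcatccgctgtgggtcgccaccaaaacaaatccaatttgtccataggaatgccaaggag

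BEAF-32 (FBgn0015602, 2R:14770469-14772630, plus strand) encodes the boundary element-associated factor, which binds clustered CGATA words. The peak at 2R:14770225-14770648 had a signal of 161.6 and rank 2703 in the IDR list. It had 70.2, rank 2951, in replicate 1 and 79.9, rank 3434, in replicate 2, and was inside both equal-length lists. Of the genes with a promoter peak, 33.2% had a weaker peak. The summit at position 14770437 was 32 bp upstream of the first of 3 TSSs, in an exon of the antisense gene asRNA:CR42254, and 479 bp and 864 bp upstream of the other TSSs. A second summit, at position 14771285, was 16 bp upstream of the most downstream TSS. It had a signal of 91.9 and rank 6209 in the pooled list, below the weakest IDR peak at 119.5. Both replicates had a summit within 500 bp of that TSS, with signals of 47.4 and 39.7. The plus strand TSS of BEAF-32 and the minus strand TSS of asRNA:CR42254 are 6 bp apart, so for that peak the starts cannot be told apart.

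**Figure D3:**
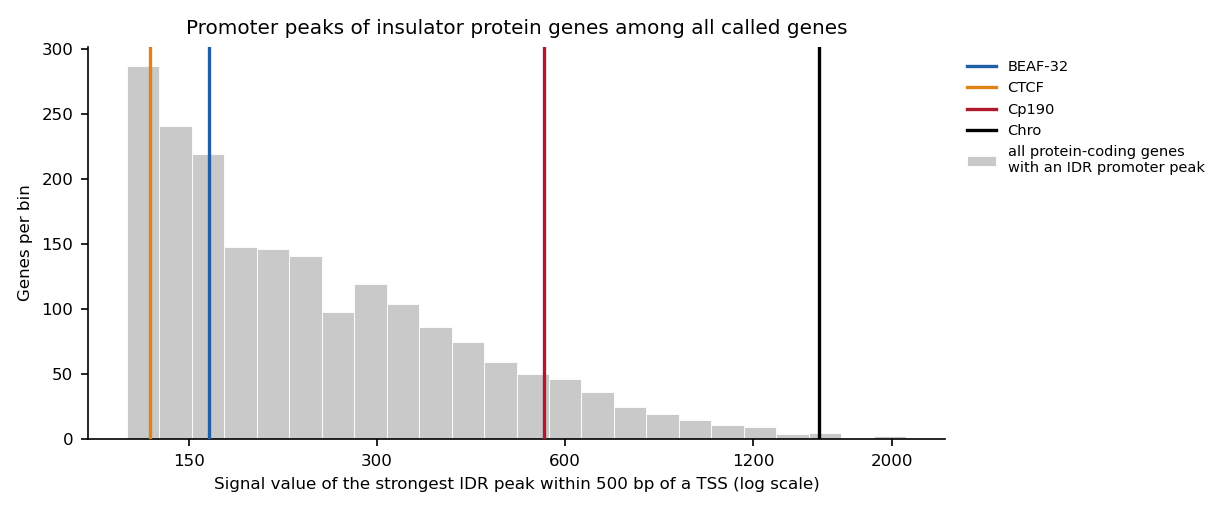
Signal value of the strongest IDR peak within 500 bp of a TSS (log axis) for the 4 insulator protein genes with such a peak, as vertical lines. The grey bars are a histogram of protein-coding genes with such a peak (genes per bin). Chro at 1529 and Cp190 at 554.3 lie in the upper tail, and BEAF-32 at 161.6 and CTCF at 130.1 lie below the median of 204.9.

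The genes of the other DNA-binding factors had no IDR summit at a promoter. ZIPIC had none in its window, and for the rest the TSS nearest to the summit in the window was that of another gene. Of the 10 insulator protein genes, 5 had an IDR summit in the window but none at an own promoter, against 27.0% of all protein-coding genes. Among genes with any IDR summit in the window, these were 5 of 9, against 65.9% of the 5710 protein-coding genes with such a summit. The 5 genes were mod(mdg4), su(Hw), pita, Ibf1 and Ibf2.

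The gene su(Hw) (FBgn0003567, 3R:14304455-14308589, minus strand) encodes the zinc-finger protein of the gypsy insulator. Its only IDR summit in the window was in an intron of red, 4298 bp past the 3′ end of su(Hw) and 8432 bp from its TSS. The peak had a signal of 130.0 and rank 3792, with 47.3, rank 5367, in replicate 1 and 81.7, rank 3324, in replicate 2. At the su(Hw) promoter, which faces the RNA polymerase II subunit gene Polr2I at 500 bp, the pooled list had 3 weak summits. The strongest of them had a signal of 42.8 and rank 18575, against 27.1 in replicate 1 and 27.4 in replicate 2 for the strongest summits there.

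The gene pita (FBgn0034878, 2R:23548967-23554712, minus strand) encodes a zinc-finger protein that recruits Cp190. The IDR peak in its window, 2R:23547990-23548413, had a signal of 132.2 and rank 3699, with its summit 37 bp from levy, which encodes a cytochrome c oxidase subunit. The gene wmd also has a TSS within 500 bp. The summit was 3349 bp and 6510 bp downstream of the TSSs of pita. The replicates differed most here, with 28.1, rank 12479, in replicate 1 and 104.8, rank 2198, in replicate 2. At its own promoters pita had 1 pooled summit, with a signal of 40.5 and rank 20169, lying in a 5′ UTR shared with the caspase gene Dcp-1. Replicate 1 had no summit within 500 bp of a TSS of pita, and replicate 2 had 3, the strongest at 51.8.

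Ibf1 (FBgn0037670, 3R:9258964-9260400, plus strand) and Ibf2 (FBgn0037669, 3R:9257727-9258501, minus strand) encode partner insulator-binding factors and start 463 bp apart on opposite strands. Neither the IDR list nor the pooled list had a summit within 500 bp of either TSS, and replicate 1 alone had a weak summit near that of Ibf1 (21.0, rank 20570). Both windows held the same IDR peak, 3R:9260393-9260816, whose summit was 33 bp upstream of ATP6AP2, which encodes an accessory protein of the vacuolar proton pump. It was 1641 bp downstream of the TSS of Ibf1 and 2104 bp upstream of that of Ibf2. The signal was 137.4, rank 3483, with 47.5, rank 5339, in replicate 1 and 83.5, rank 3208, in replicate 2. The paired genes share this peak and most of their windows, and are not independent cases.

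ZIPIC (FBgn0039740, 3R:30035240-30036870, minus strand), a further zinc-finger partner of Cp190, had 0 summits in the IDR, pooled and replicate 1 lists. Replicate 2 had 1 weak summit in its window, with a signal of 34.6 and rank 12466, 35 bp from the nearest TSS, which the annotation gives to Sry-alpha and Sry-beta. A window with no pooled summit was found for 16.3% of all protein-coding genes. The nearest IDR summits lay beyond the limit of 5 kb, at 6420 bp from the gene (131.2) and at 9330 bp (347.3, nearest to the ribosomal protein gene RpL32). Of the other genes, the IDR summit just inside the limit was that of su(Hw) at 4298 bp, and the one just outside was 5834 bp from Cp190, with a signal of 285.7.

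**Figure D4:**
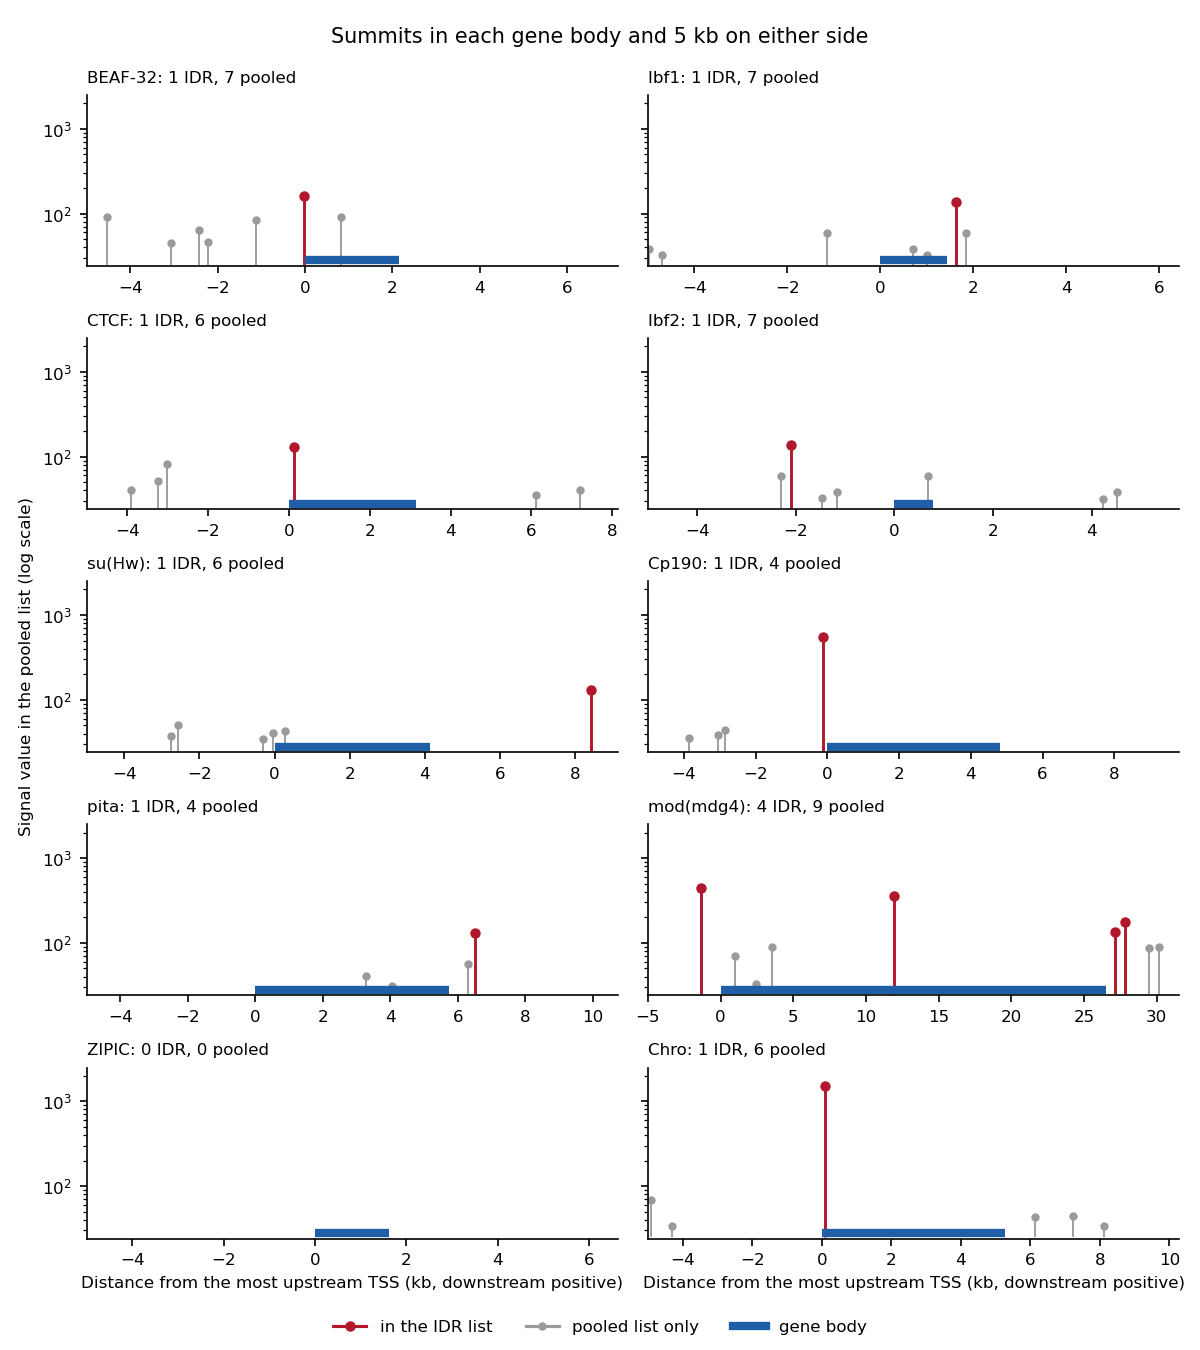
Summits in the window of each insulator protein gene, by distance from its most upstream TSS (kb, downstream positive) and signal value in the pooled list (log axis). Red stems are summits that are also in the IDR list, grey stems pooled summits only, and the blue bar is the gene body. Red stems stand at the TSS of BEAF-32, CTCF, Cp190 and Chro (161.6, 130.1, 554.3 and 1529), away from it in the su(Hw), pita, Ibf1, Ibf2 and mod(mdg4) panels, and the ZIPIC panel is empty.

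In the relaxed lists, summits were common both at the insulator protein genes and at all protein-coding genes. A pooled summit was at a promoter for 6 of the 10, against 45.3% of all protein-coding genes, and in the window for 9 of the 10, against 83.7%. In the replicate 1 list 7 had a promoter summit, against 43.8%, and 9 a summit in the window, against 86.9%. In the replicate 2 list 7 had a promoter summit, against 47.3%, and 10 a summit in the window, against 85.6%. In the equal-length list of replicate 1, 4 had a promoter summit (13.5% of all) and 5 a summit in the window (40.9% of all). In that of replicate 2, 3 had a promoter summit (14.5% of all) and 8 a summit in the window (41.2% of all). A promoter summit in the IDR list and in both equal-length lists was found for Chro, Cp190 and BEAF-32, and for 10.5% of all protein-coding genes. In the stronger 50% of the IDR peaks, Chro and Cp190 had a promoter summit (2 of the 10, against 7.8% of all), and 3 of the 10 had a summit in the window (26.0% of all). The window count thus rested more on replicate 2, in which the levy, ATP6AP2 and red peaks ranked higher than in replicate 1.

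Several insulator protein genes face a divergent neighbour. Of the 10, 5 had a coding TSS on the opposite strand within 1000 bp upstream: su(Hw), Ibf1, Ibf2, Cp190 and Chro. Among all 13945 protein-coding genes, 5052 had one. Ibf1 and Ibf2 are each other's neighbour and form a single pair. Promoter peaks were present at 2 of these 5, against 22.3% of the 5052 protein-coding genes with such a neighbour. They were present at 2 of the other 5, BEAF-32 and CTCF, against 9.23% of the 8893 genes without such a neighbour. In a divergent pair the summit lies near both starts, so the Cp190 peak counts for CG4338 and the Chro peak for Ssl1 as well.

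The 11 summit regions had ordinary base composition and mixed motif content. Their median GC content was 37.9%, with a range of 31.9 to 50.8%, against a median of 37.9% over all IDR peaks with quartiles of 33.9 and 42.1%. Motifs were searched on both strands within 150 bp of each summit, and the shares that follow are for all IDR summit regions and for 19253 promoters (250 bp before to 50 bp after a TSS). CGATA, the word that BEAF-32 recognises, was present in 8 of the 11 regions, against 33.5% of IDR regions and 45.7% of promoters. It was nearest to the summit at ATP6AP2, at 2 bp, and at Chro, at 8 bp, and absent from the regions of tin and pre-mod(mdg4)-E and from the region upstream of aus. The DRE, TATCGATA, was in 2 regions, at levy 15 bp from the summit and at Cp190, against 2.76% of IDR regions and 7.98% of promoters. Each DRE also counts as CGATA. The GAGA factor word, GAGAG, was in 4 regions (37.6% of IDR regions and 33.1% of promoters). TATAAA was in 4 (42.8% and 42.2%), and CAGCTG, an E-box, was in the CTCF region only (15.1% and 17.9%). The words GGTCACAC (motif 1 of M1BP), GCATACTT (su(Hw) core) and AGGTGGCGC (CTCF core) were in none of the 11 regions. They were rare in all IDR regions (2.48%, 2.06% and 0.818%) and in promoters (6.72%, 1.17% and 0.286%). A word match is a description of the sequence and not a binding site.

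A further list of 25 genes for boundary, cohesin and chromatin proteins that work with insulators was set beside these genes, of which 24 matched the annotation. An IDR summit lay at the promoter of 6 of the 24, against 14.0% of all protein-coding genes, and in the window of 10, against 40.9%. The 6 were Dref, the factor of the DRE (signal 478.8), M1BP, the factor of motif 1 (291.1), Trl, which encodes GAGA factor (285.8), pzg, whose product joins a complex with Dref (185.2), the RNA helicase gene Rm62 (132.5) and the BET bromodomain gene fs(1)h (128.6). All 6 were weaker than the Cp190 peak, and Rm62 and fs(1)h were close to the weakest IDR peak. No IDR summit lay in the windows of the cohesin genes vtd, SMC1 and SMC3 or of the cohesin regulators Nipped-B and wapl. Such an absence is common, because only 40.9% of all protein-coding genes had an IDR summit in the window. These genes were named after their values were seen. The listed symbol without a match was SA, so that gene was not examined.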

How the data were processed

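The deposited files are peak lists. For each peak the authors deposited a summit, a signal value and the -log10 of a q-value. The sources used here do not give the aligner, the caller or the IDR threshold. The submitters' antibody label names CG2875, while the description names an antibody against GFP. The -log10 q was 3.956 for all IDR peaks as deposited and was not used for ranking. The control library was not analysed here, and no untagged precipitation was used, so whether a peak depends on the fusion protein was not tested.

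Positions are 1-based on dm6. TSSs came from Ensembl release 115 and sequences from the RefSeq genome of Release 6, whose arm lengths match. A peak counted as the same in another list if it overlapped by at least 1 bp, and then the strongest overlapping peak was taken. Chromatin was sheared to 200 to 800 bp, per the labels, which limits how finely a summit can be placed. Printed sequence leaves out UTR stretches over 10 bp, except 30 bases at a summit. The insulator protein genes, the further list and the motifs were chosen with earlier results of these data known, so no test was made over them. The text names all 10 genes, the owner of the TSS nearest to each IDR summit, genes with a TSS within 500 bp, the 3 genes most like Chro and up to 8 further genes. The cohesin genes, the members of divergent pairs and genes nearest to pooled or more distant summits were named after their values were seen. The scripts were tested on simulated data, with matplotlib 3.10.9 for figures and numpy 2.4.6 and pandas 2.3.3 under Python 3.11.15.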

Additional observations from a re-analysis of the deposited data

How the results depend on the processing

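Alternatives were each replicate alone at equal length, the stronger 50% of the IDR peaks, 2 times as many pooled peaks, other promoter windows and flanks, the peak interval in place of the summit, and the nearest TSS only. Of 32 summary values over all genes, 23 stayed within 1.5 times. Where an alternative touched promoter calls, their number entered these values more than once. With 1 replicate left out, genes with a promoter summit numbered 3 to 4, all of them among the 4 genes of the IDR list, genes with a summit in the window 5 to 8, and summits 8 to 10. In the stronger 50%, Chro and Cp190 alone kept a promoter call (2 genes, both among the 4, against 7.8% of all protein-coding genes), with 3 genes (26.0% of all) and 4 summits in the windows. The strongest pooled peaks, 2 times as many as the IDR list has, gave 18 summits. With them, 4 genes had a promoter summit and 9 a summit in the window, the same numbers as in the IDR list. Of all protein-coding genes, 24% had a promoter summit in this longer list, against 14.0% in the IDR list. For a summit in the window the share was 58.6%, against 40.9%. The contrast between the 10 genes and all protein-coding genes was therefore smaller in this longer list, and depended on list length. The gene body alone gave 3 genes (11.4% of all) and 3 summits, and a flank of 10 kb gave 10 genes (56.0% of all) and 20 summits. The calls of single genes changed in 3 of 80 cases: CTCF was lost without replicate 1, and CTCF and BEAF-32 in the stronger 50%. Several alternatives could only remove calls or only add them, so many of the 80 cases could not change. The lost calls follow from the construction of these lists, which hold fewer or other peaks. No paired analysis was possible because the study has 1 group. Read totals are unknown, and 2 libraries lie behind every peak.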
